A study of Mus musculus with 12 samples.

Results

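The 32 genes described here encode the enzymes, carriers and regulators that build, elongate and desaturate fatty acids and place them on glycerol. They were chosen by gene symbol, and all 32 were found among the 39017 genes of the deposited count table. RNA was sequenced from 12 macrodissected lung tumors, 3 per group, after cells bearing CD45, the pan-leukocyte surface protein, had been removed by magnetic sorting. Every mouse was C57BL6/J, carried K-rasLSL-G12D/WT, p53Fl/Fl and CCSP-rtTA, and received 6000 viral units of Lenti.TRE-PPARaD13_PGK-Cre into the trachea. Cre opened the K-ras allele and removed p53 in infected cells, and doxycycline could switch on PPARαΔ13, a truncated dominant-negative form of the lipid-sensing receptor PPARα. The KP group, labelled wt/wt, had a regular diet, and the KP-PPARαΔ13 group (labelled KP_PPARaDN) was of the same genotype on a diet with 625 mg of doxycycline per kg for 15 days. The KPG1 group also carried Glut1Fl/Fl, which removes the glucose transporter Glut1 (gene Slc2a1), on a regular diet, and KPG1-PPARαΔ13 (labelled KPG1_PPARaDN) was that genotype on the doxycycline diet. All tumors were taken 26 weeks after initiation. The ages of the mice were not given in the sources used here. CCSP is a club cell promoter, so the inducer of the transgene depended on that promoter in each tumor cell.

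Fatty acid synthesis starts from citrate that leaves the mitochondrion and is split into acetyl-CoA, which acetyl-CoA carboxylase turns into malonyl-CoA and fatty acid synthase assembles into palmitate. Elongases and desaturases then lengthen the chain and add double bonds, and acyltransferases and phosphatidate phosphatases build glycerolipids from the products. In the lung, alveolar type 2 cells use this pathway to make the phosphatidylcholine of surfactant. The transcription factors SREBP-1 (gene Srebf1) and ChREBP (gene Mlxipl) drive many of its genes, and PPARα is best known for driving fatty acid oxidation.

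Total counts were 25263794 to 32654223 per tumor. The 12 tumors came from 9 mice, reading the number in the tumor names as the mouse, so tumors of 1 mouse are not independent, and the p-values below treat all 12 as separate. KP tumors were all from females and KPG1 tumors all from males, so genotype and sex cannot be told apart on the regular diet. Values below with sex as a covariate take the sex term from the doxycycline-fed tumors alone and carry it over to the regular diet. Those tumors were 1 female and 2 male in KP-PPARαΔ13, and 2 female, both from 1 mouse, and 1 male in KPG1-PPARαΔ13. No doxycycline-fed tumor lacked the transgene, so the diet and PPARαΔ13 cannot be told apart either. Both targeted genes were checked first. Slc2a1 was at 41.7, 35.3 and 57.7 CPM in KP replicates 1 to 3, 153, 115 and 108 in KP-PPARαΔ13, 30.2, 64.0 and 39.9 in KPG1 and 23.7, 53.2 and 54.5 in KPG1-PPARαΔ13. It did not separate KPG1 from KP on the regular diet and was highest in KP-PPARαΔ13. The paper describes PPARαΔ13 as a mouse PPARα construct, so counts on Ppara can include the transgene. Ppara was at 15.7, 10.5 and 9.54 CPM in KP replicates 1 to 3, 2.71, 64.6 and 246 in KP-PPARαΔ13, 7.24, 10.5 and 15.3 in KPG1 and 8.90, 19.2 and 17.7 in KPG1-PPARαΔ13. The library labelled KP-PPARαΔ13 replicate 1 was therefore the lowest of the 12 in Ppara, and the library labelled KPG1-PPARαΔ13 replicate 1 lay within the tumors on the regular diet. The other KPG1-PPARαΔ13 tumors, at 19.2 and 17.7 CPM, were only slightly above the highest regular-diet tumor, at 15.7 CPM. All of that group was far below the 64.6 and 246 CPM of KP-PPARαΔ13 replicates 2 and 3. How far the transgene was switched on in each tumor was not tested. Group names below are those of the labels. Values without the 2 PPARαΔ13 libraries numbered 1, called low in Ppara below, are given beside the results that rest on them. KP replicate 2 also stood apart: it held the highest value of 6 and the lowest of 8 of the 32 genes. KPG1 replicate 2 held the highest value of 8 (Acacb, Scd2, Fads1, Fads2, Fads3, Me1, Gpam and Oxsm) and the lowest of 1 (Elovl7).

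Acaca, which encodes the main cytosolic acetyl-CoA carboxylase, had a lower group mean on doxycycline than on the regular diet in both genotypes. KP-PPARαΔ13 did not overlap with KP, whereas KPG1-PPARαΔ13 replicate 2 (113.98 CPM) lay just above KPG1 replicate 1 (113.84 CPM). In KP-PPARαΔ13 compared to KP, the other genes at an unadjusted p under 0.05 were Mlxipl, Acss2, Acly and Agpat3, which were lower, and Slc25a1 and Fads3, which were higher (Elovl4, with few counts, aside). Of these, Acss2 was at -2.23 on the log2 scale with all tumors and at -0.97 without KP replicate 2. In KPG1-PPARαΔ13 compared to KPG1 they were Acacb, Fads1 and Fads2, lower, and Elovl7 and Mid1ip1, higher, and Scd1 was lower without overlap of the groups but above that p. With 3 tumors per group none of the 31 genes tested passed an adjusted p of 0.05 in any of the 7 comparisons by edgeR's quasi-likelihood test. A second count test, DESeq2, called Mlxipl, Acaca and Slc25a1 in KP-PPARαΔ13 against KP and Acacb in KPG1-PPARαΔ13 against KPG1. Verbs such as rose or fell are therefore not used below for single genes, and each is given by its values.

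**Figure D1:**
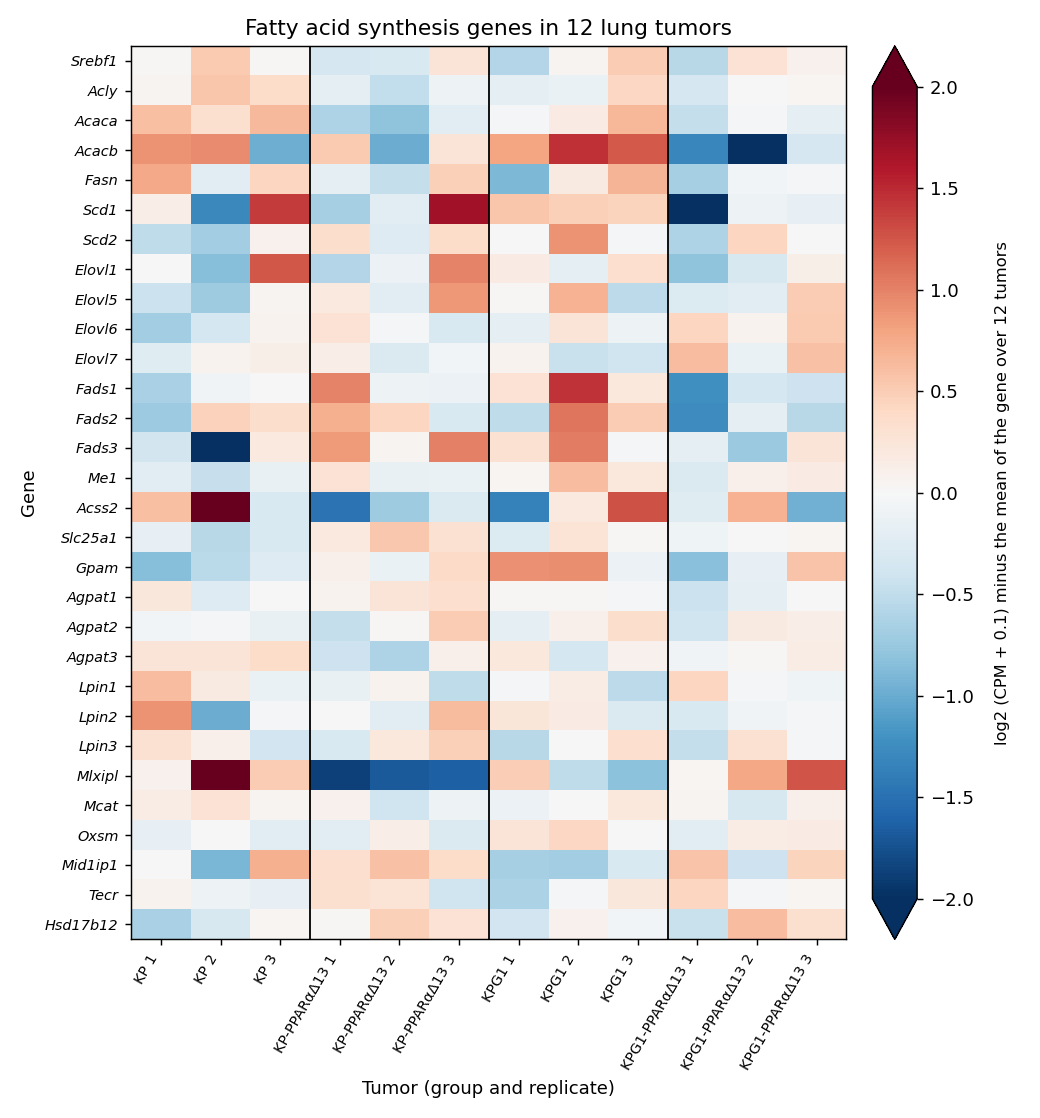
Level of 30 of the 32 genes (rows) in 12 tumors (columns), as log2 (CPM + 0.1) minus the mean of the gene over the 12 tumors, with black lines between groups; red is above and blue below the mean of the gene, the color scale ends at 2 in each direction, and Elovl4 and Thrsp, with few counts, are left out. Mlxipl was lowest in the 3 KP-PPARαΔ13 tumors and highest in KP replicate 2, and Acaca was below its mean in all 3 tumors of KP-PPARαΔ13.

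The promoters of 4 genes are shown, since these genes supply acetyl-CoA and palmitate and are described in detail below. Each line gives the 120 bases before an annotated transcript start, 5′ to 3′ on the strand of the gene, from the RefSeq promoter windows of GRCm38.p6. Capitals mark CCAAT and GGGCGG, read on either strand, which are bound by NF-Y and Sp1, known partners of SREBP-1. Slc25a1 lies at chr16:17928220-17928339, minus strand, Acly at chr11:100528001-100528120, minus strand, Acss2 at chr2:155517923-155518042, plus strand and Fasn at chr11:120824548-120824667, minus strand.
Slc25a1: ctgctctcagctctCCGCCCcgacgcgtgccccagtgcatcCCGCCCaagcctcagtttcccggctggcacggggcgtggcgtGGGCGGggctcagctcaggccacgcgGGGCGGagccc
Acly: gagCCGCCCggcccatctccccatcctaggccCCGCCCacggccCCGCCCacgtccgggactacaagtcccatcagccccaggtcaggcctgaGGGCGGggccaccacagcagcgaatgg
Acss2: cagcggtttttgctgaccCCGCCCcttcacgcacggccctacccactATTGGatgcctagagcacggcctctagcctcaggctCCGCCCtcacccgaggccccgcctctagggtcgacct
Fasn: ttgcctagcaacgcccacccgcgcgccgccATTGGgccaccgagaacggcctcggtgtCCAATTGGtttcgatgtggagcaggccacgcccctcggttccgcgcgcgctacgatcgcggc
Within the 120 bases printed, the Fasn stretch held CCAAT boxes and no GGGCGG, whereas those of Slc25a1 and Acly held GGGCGG and no CCAAT. This contrast depends on the stretch shown. Just outside it, Slc25a1 held CCAAT at -125 to -121 and at 36 to 40 from the start, and Acly at 37 to 41. Windows of 250 bases before to 50 after the start were matched for 28 of the 32 genes, in 40 windows; Scd1, Scd2, Fads1 and Mcat had no entry. Among all 32851 windows of the table, searched on both strands, CCAAT was in 37.41%, GGGCGG in 35.66%, the E-box CACGTG in 7.15%, the sterol response element TCACNCCAC in 1.24% and the PPAR response element, a direct repeat with 1 base between the copies and no mismatch allowed, in 0.04%. Of the 40 windows of the listed genes, CCAAT was in 19 (47.5%), GGGCGG in 25 (62.5%), CACGTG in 6 (15.0%; Elovl4, Elovl5, Lpin2, Lpin3, Mlxipl and Slc25a1), TCACNCCAC in 1 (2.5%; Mlxipl) and the PPAR response element in 0. The 5 motifs share no whole motif with each other, and a match describes the sequence alone.

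Levels within a gene are given as CPM, counts per 1000000 of the scaled library, and levels between genes as TPM, which also divides by the exon length of each gene. Scd1, which puts the first double bond into stearate, was the highest by its median of 904 TPM (189 to 2592) over the 12 tumors, and Scd2, its close relative, followed with 585 TPM (399 to 934). Next came Me1 with 415 TPM (351 to 556), Acly with 349.6 TPM (261 to 600.0), Fasn with 322 TPM (180.0 to 564) and Elovl1 with 304 TPM (186 to 713). These 6 made up 66.1% of the summed median TPM of the 32 genes. Srebf1 was at 96.2 TPM (63.9 to 155), Acaca at 22.9 TPM (14.0 to 36.3), Acacb at 15.5 TPM (2.17 to 27.7) and Mlxipl at 1.17 TPM (0.266 to 13.2). Thrsp and Elovl4 had medians under 1 TPM. In this order the ranges of all 31 pairs of neighbors overlapped, so no gene stood clear of the next one beyond the spread over tumors. Among genes with a mean of at least 20 CPM, the median coefficient of variation over the 12 tumors was 26.7% for 27 of the 32 genes and 23.1% for all 8403 genes.

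**Figure D2:**
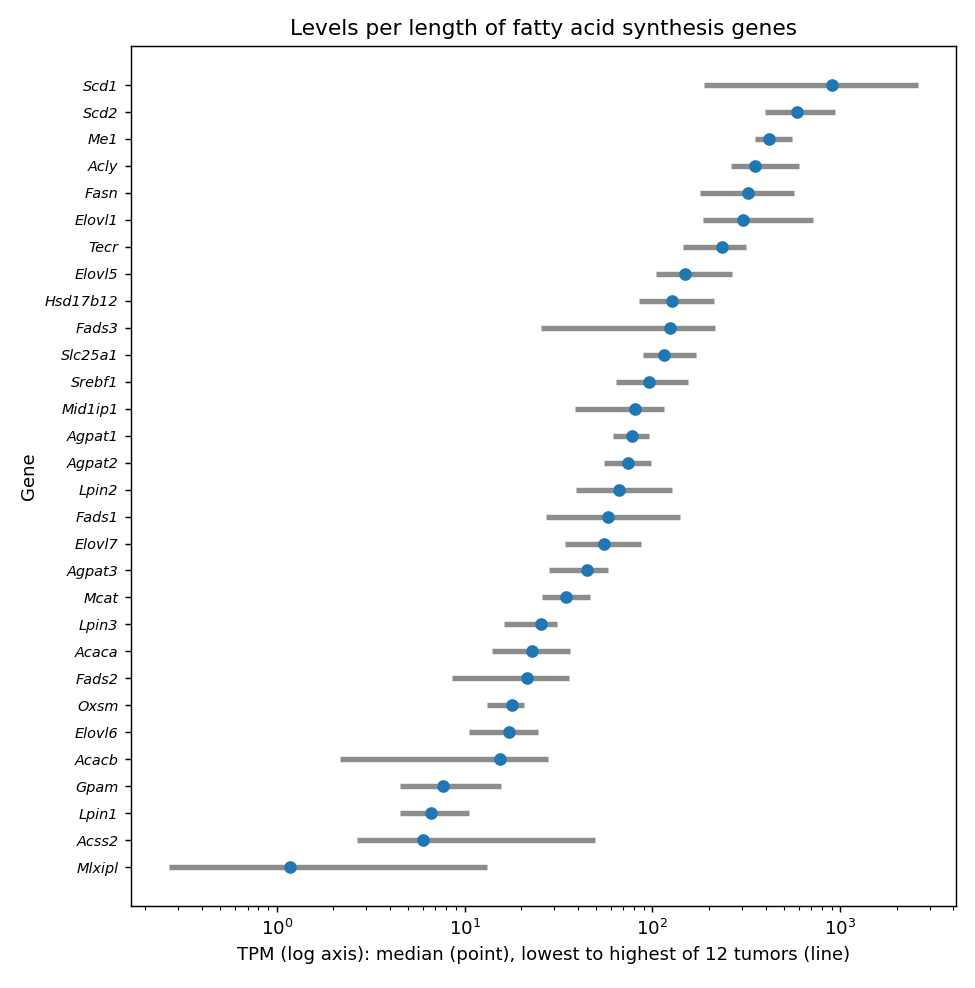
Level of 30 of the 32 genes in TPM on a log axis, ordered by median; the point is the median and the line runs from the lowest to the highest of 12 tumors (Elovl4 and Thrsp, listed at 0 in some tumors, are left out). Scd1 had the highest median, 904 TPM, and the ranges of neighbors overlap throughout.

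Among the regulators, Srebf1 (chromosome 11, 60199089 to 60222581, minus strand, GRCm38) was at 159, 224 and 159 CPM in KP replicates 1 to 3, 124, 126 and 186 in KP-PPARαΔ13, 104, 162 and 222 in KPG1 and 107, 192 and 166 in KPG1-PPARαΔ13. Its groups overlapped in every comparison, with a log2 fold change of -0.31 ± 0.31 (SE) in KP-PPARαΔ13 against KP and -0.07 ± 0.31 (SE) in KPG1-PPARαΔ13 against KPG1. Exons of Srebf1 share 109 bases with Rai1 on the opposite strand, and whether counting used the strand is not given in the sources used here. Mlxipl (chromosome 5, 135089890 to 135138382, plus strand), whose product ChREBP answers to sugar metabolites, was at 1.88, 18.7 and 2.54 CPM in KP replicates 1 to 3, 0.411, 0.484 and 0.502 in KP-PPARαΔ13, 2.52, 1.20 and 0.958 in KPG1 and 1.81, 3.07 and 4.37 in KPG1-PPARαΔ13. The 3 KP-PPARαΔ13 tumors were the lowest of the 12, below every tumor of the other 3 groups, and KP replicate 2 was the highest by far. In edgeR, Mlxipl had a log2 fold change -4.04 ± 0.88 (SE), adjusted p = 0.256 in KP-PPARαΔ13 against KP, 0.98 ± 0.78 (SE) (adjusted p = 0.676) in KPG1-PPARαΔ13 against KPG1, and 5.02 ± 1.16 (SE) with adjusted p = 0.33 for the difference between these effects. Without KP replicate 2 the first of these was -2.24 ± 0.54 (edgeR adjusted p = 0.541) and the difference was 3.22 ± 0.72. Without both libraries that were low in Ppara they were -3.95 and 5.21.

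Mid1ip1, whose product helps acetyl-CoA carboxylase to polymerize, was at 45.3, 24.0 and 73.7 CPM in KP replicates 1 to 3, 56.7, 67.6 and 58.2 in KP-PPARαΔ13, 28.4, 27.9 and 36.4 in KPG1 and 66.9, 33.8 and 61.4 in KPG1-PPARαΔ13. All 3 KP-PPARαΔ13 tumors lay within the range of KP, and in the floxed genotype only KPG1-PPARαΔ13 replicate 2 lay within the range of KPG1 (edgeR, log2 fold change 0.81 ± 0.37 (SE), adjusted p = 0.462). Mid1ip1 lies on chromosome X, and with sex as a covariate this value was 0.37 ± 0.44 (edgeR adjusted p = 0.999). Its relative Thrsp, a thyroid hormone responsive gene of liver and fat, was hardly expressed: it had 0 to 27 counts per tumor, which is at most 0.904 CPM, and did not pass the filter on low counts. Thrsp was at 0.137, 0.455 and 0 CPM in KP replicates 1 to 3, 0.103, 0 and 0.904 in KP-PPARαΔ13, 0.280, 0.0344 and 0.132 in KPG1 and 0.273, 0.0960 and 0.154 in KPG1-PPARαΔ13.

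Acetyl-CoA supply came next. Slc25a1 (chromosome 16, 17925223 to 17928219, minus strand), the mitochondrial citrate carrier, was at 64.1, 49.1 and 58.1 CPM in KP replicates 1 to 3, 82.3, 104 and 88.6 in KP-PPARαΔ13, 59.7, 86.6 and 73.2 in KPG1 and 67.9, 71.3 and 74.1 in KPG1-PPARαΔ13. All 3 KP-PPARαΔ13 tumors were above all 3 KP tumors, while KPG1-PPARαΔ13 lay inside the range of KPG1. In edgeR this was a log2 fold change 0.68 ± 0.18 (SE), adjusted p = 0.305 in KP-PPARαΔ13 against KP, and -0.04 ± 0.18 (SE) in KPG1-PPARαΔ13 against KPG1, with a difference of -0.72 ± 0.26 (SE) (adjusted p = 0.365). Acly, which splits citrate into acetyl-CoA and oxaloacetate, was at 577, 809 and 714 CPM in KP replicates 1 to 3, 483, 391 and 517 in KP-PPARαΔ13, 481, 504 and 740.1 in KPG1 and 439.9, 553 and 569 in KPG1-PPARαΔ13. KP and KP-PPARαΔ13 did not overlap (edgeR, log2 fold change -0.59 ± 0.23 (SE), adjusted p = 0.38), and KPG1 and KPG1-PPARαΔ13 did. Acss2, which makes acetyl-CoA from acetate, was at 32.2, 129 and 17.2 CPM in KP replicates 1 to 3, 7.61, 12.9 and 17.4 in KP-PPARαΔ13, 8.24, 24.3 and 51.6 in KPG1 and 17.9, 34.4 and 10.9 in KPG1-PPARαΔ13. KP replicate 2 was higher than any other tumor, and without it the log2 fold change of Acss2 in KP-PPARαΔ13 against KP was -0.97 ± 0.68 in place of -2.23 ± 0.80 (SE) (edgeR adjusted p = 0.355 with all tumors and 0.839 without it). Exons of Acss2 share 395 bases with Gss on the opposite strand, which had 1293 to 3857 counts per tumor. Me1, the cytosolic malic enzyme that supplies NADPH, was at 406, 345 and 427 CPM in KP replicates 1 to 3, 579, 426 and 432 in KP-PPARαΔ13, 487, 728 and 547 in KPG1 and 390.0, 508 and 531 in KPG1-PPARαΔ13. The 3 KPG1 tumors were above the 3 KP tumors in Me1 (edgeR, log2 fold change 0.58 ± 0.22 (SE), adjusted p = 0.785; 0.39 with sex as a covariate), and the diets overlapped in both genotypes.

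Acaca (chromosome 11, 84129672 to 84401651, plus strand), which makes the malonyl-CoA used for synthesis, was at 179, 146 and 184 CPM in KP replicates 1 to 3, 76.2, 67.5 and 101 in KP-PPARαΔ13, 114, 132 and 185 in KPG1 and 84.5, 114 and 103 in KPG1-PPARαΔ13. The 6 doxycycline-fed tumors reached 67.5 to 114.0 CPM and the 6 on a regular diet 113.8 to 185.5 CPM, with KPG1-PPARαΔ13 replicate 2 and KPG1 replicate 1 at almost the same level. Group means were 169.9 ± 20.4 CPM (SD, n = 3) in KP, 81.6 ± 17.4 CPM (SD, n = 3) in KP-PPARαΔ13, 144 ± 37.2 CPM (SD, n = 3) in KPG1 and 100.3 ± 14.9 CPM (SD, n = 3) in KPG1-PPARαΔ13. In edgeR, Acaca had a log2 fold change -1.06 ± 0.23 (SE), adjusted p = 0.256 in KP-PPARαΔ13 against KP, -0.52 ± 0.23 (SE) (adjusted p = 0.453) in KPG1-PPARαΔ13 against KPG1, and -0.79 ± 0.16 (SE) with adjusted p = 0.18 when averaged over both genotypes. With sex as a covariate these were -1.29, -0.30 and -0.80, and without both libraries that were low in Ppara they were -1.01, -0.41 and -0.71. Without KPG1 replicate 3 the value in KPG1-PPARαΔ13 against KPG1 was -0.33. Among doxycycline-fed tumors Acaca was at 67.5 to 102.6 CPM in the 3 from females and 76.2 to 114.0 CPM in the 3 from males.

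Acacb (chromosome 5, 114146535 to 114250761, plus strand), the carboxylase at the mitochondrial surface whose malonyl-CoA restrains fatty acid oxidation, was at 61.8, 63.9 and 16.7 CPM in KP replicates 1 to 3, 47.7, 16.5 and 39.6 in KP-PPARαΔ13, 57.0, 91.0 and 77.0 in KPG1 and 13.3, 5.76 and 26.2 in KPG1-PPARαΔ13. Every KPG1-PPARαΔ13 tumor was below every KPG1 tumor, by 4.97-fold in the means, whereas KP-PPARαΔ13 overlapped with KP. In edgeR the former was a log2 fold change -2.31 ± 0.62 (SE), adjusted p = 0.42 and the latter -0.46 ± 0.59 (SE) (adjusted p = 0.838), and their difference was -1.85 ± 0.84 (SE) with adjusted p = 0.423. With sex as a covariate the first value was -2.46 ± 1.00, and without both libraries low in Ppara it was -2.23 ± 0.76. Fasn, fatty acid synthase itself, was at 1786, 898 and 1429 CPM in KP replicates 1 to 3, 929.6, 761 and 1476 in KP-PPARαΔ13, 569, 1196 and 1686 in KPG1 and 665, 1019 and 1028 in KPG1-PPARαΔ13. Its groups overlapped in all 4 pairwise comparisons, with -0.38 ± 0.41 (SE) on the log2 scale in KP-PPARαΔ13 against KP and -0.35 ± 0.41 (SE) in KPG1-PPARαΔ13 against KPG1. Within KPG1 alone, Fasn ran from 569 CPM in replicate 1 to 1686 CPM in replicate 3. The mitochondrial counterparts Mcat and Oxsm, which serve lipoic acid synthesis, varied little, at 18.1 to 29.2 CPM and 16.8 to 27.4 CPM.

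**Figure D3:**
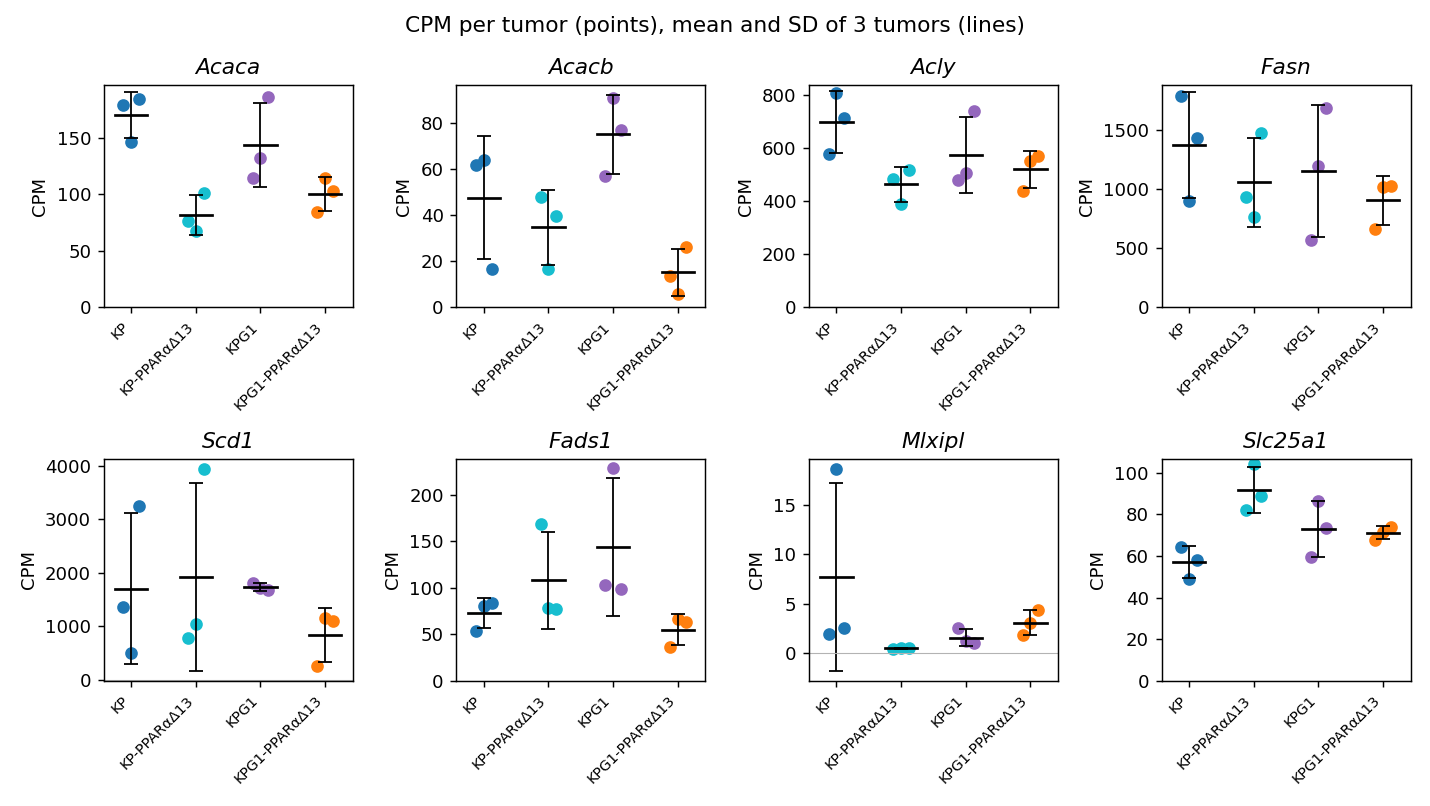
CPM of 8 genes in each of 12 tumors (points), by group; the horizontal line is the mean and the error bar the SD of 3 tumors, each axis includes 0, and for Mlxipl the SD of KP reaches below 0. Acaca was at 67.5 to 101.0 CPM in KP-PPARαΔ13 and at 146.4 CPM or more in KP, and Acacb of KPG1-PPARαΔ13 lay below all KPG1 tumors.

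Among the elongases, Elovl1, which extends saturated and monounsaturated very long chains, was at 246, 137 and 581 CPM in KP replicates 1 to 3, 165, 228 and 491 in KP-PPARαΔ13, 277, 216 and 313 in KPG1 and 142, 198 and 269 in KPG1-PPARαΔ13. KP replicate 3 and KP-PPARαΔ13 replicate 3 were the highest in Elovl1 and also in Scd1. Elovl6, which takes palmitate to stearate, was at 19.7, 24.8 and 33.3 CPM in KP replicates 1 to 3, 39.0, 31.1 and 25.6 in KP-PPARαΔ13, 28.1, 38.1 and 29.7 in KPG1 and 42.9, 33.4 and 45.9 in KPG1-PPARαΔ13, with overlap in every pairwise comparison. Elovl7, another elongase of long saturated chains, was at 53.8, 67.3 and 69.2 CPM in KP replicates 1 to 3, 70.1, 52.2 and 61.2 in KP-PPARαΔ13, 66.8, 46.8 and 48.2 in KPG1 and 97.6, 58.2 and 95.8 in KPG1-PPARαΔ13, and its edgeR values in KPG1-PPARαΔ13 against KPG1 were log2 fold change 0.64 ± 0.24 (SE), adjusted p = 0.42. Elovl5, which extends polyunsaturated chains, was at 97.0 to 289 CPM over the 12 tumors. Tecr and Hsd17b12, further enzymes of the elongation cycle, were at 91.8 to 193 CPM and 58.9 to 142 CPM. Hsd17b12 was at 58.9, 73.9 and 95.4 CPM in KP replicates 1 to 3, 94.2, 129 and 113 in KP-PPARαΔ13, 70.9, 98.8 and 88.9 in KPG1 and 67.8, 142 and 116 in KPG1-PPARαΔ13, and averaged over both genotypes its doxycycline difference was 0.45 ± 0.20 (SE) on the log2 scale (edgeR adjusted p = 0.476). Elovl4, the elongase of ultra-long chains in retina and skin, had 1, 29 and 0 counts in KP, 0 in every KP-PPARαΔ13 tumor, 1, 0 and 0 counts in KPG1 and 15, 18 and 0 counts in KPG1-PPARαΔ13, at most 0.879 CPM. KP replicate 2 and KPG1-PPARαΔ13 replicates 1 and 2 carried nearly all of its 64 counts, so no fold change is given for it.

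Of the desaturases, Scd1 (chromosome 19, 44394455 to 44407879, minus strand) was at 1354, 501 and 3249 CPM in KP replicates 1 to 3, 777, 1054 and 3939.5 in KP-PPARαΔ13, 1813, 1710.2 and 1674 in KPG1 and 258, 1148 and 1100.4 in KPG1-PPARαΔ13, a 15.3-fold range. All 3 KPG1-PPARαΔ13 tumors were below all 3 KPG1 tumors in Scd1, while the fitted difference was -1.05 ± 0.76 (SE) with an edgeR adjusted p of 0.649, and the tumors of KP and of KP-PPARαΔ13 each spread over a several-fold range. Scd2 was at 652, 578 and 986 CPM in KP replicates 1 to 3, 1188, 779 and 1196 in KP-PPARαΔ13, 925, 1739 and 907 in KPG1 and 608, 1259.9 and 925 in KPG1-PPARαΔ13, with KP-PPARαΔ13 and KP overlapping. Fads1 (chromosome 19, 10182888 to 10196877, plus strand), which makes arachidonate, was at 54.1, 80.7 and 83.7 CPM in KP replicates 1 to 3, 168, 78.6 and 77.5 in KP-PPARαΔ13, 103, 229 and 98.3 in KPG1 and 36.2, 66.0 and 63.2 in KPG1-PPARαΔ13. KPG1-PPARαΔ13 lay below both KPG1 and KP-PPARαΔ13 without overlap, and KPG1 lay above KP without overlap. In edgeR, Fads1 had a log2 fold change -1.38 ± 0.41 (SE), adjusted p = 0.42 in KPG1-PPARαΔ13 against KPG1, -0.97 ± 0.41 (SE) (adjusted p = 0.502) against KP-PPARαΔ13, and 0.98 ± 0.41 (SE) (adjusted p = 0.787) in KPG1 against KP. With sex as a covariate the first was -1.04 (edgeR adjusted p = 0.999) and the last 0.45 (edgeR adjusted p = 1). Without KPG1 replicate 2 the first was -0.90 and the last 0.49. The second was -0.27 without both libraries low in Ppara and -0.50 without KP-PPARαΔ13 replicate 1 alone.

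Fads2, which catalyzes the first desaturation of the essential fatty acids, was at 11.5, 26.2 and 24.3 CPM in KP replicates 1 to 3, 31.3, 25.7 and 15.4 in KP-PPARαΔ13, 13.3, 40.2 and 27.0 in KPG1 and 7.91, 16.7 and 12.9 in KPG1-PPARαΔ13. Its doxycycline difference was -1.10 ± 0.46 (SE) in the KPG1 genotype (edgeR adjusted p = 0.44; -0.72 without KPG1 replicate 2) and 0.22 ± 0.45 (SE) in KP. Fads3, their neighbor in the gene cluster, was at 97.6, 24.8 and 144 CPM in KP replicates 1 to 3, 226, 129.9 and 253 in KP-PPARαΔ13, 155, 256 and 122 in KPG1 and 109, 74.6 and 149.6 in KPG1-PPARαΔ13, and KP replicate 2 was the lowest of the 12. Without KP replicate 2 the Fads3 log2 fold change in KP-PPARαΔ13 against KP was 0.74 ± 0.41, compared to 1.19 ± 0.54 (SE) with it. The difference of the doxycycline effects between genotypes was -1.95 ± 0.58 (SE) for Fads1 (edgeR adjusted p = 0.335) and -1.87 ± 0.75 (SE) for Fads3 (edgeR adjusted p = 0.395). For Fads1 it was -1.25 ± 0.52 without both libraries low in Ppara, of which KP-PPARαΔ13 replicate 1 was the one at 168 CPM, and -1.23 ± 0.81 with sex as a covariate (edgeR adjusted p = 0.707 and 0.954).

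Among the glycerolipid enzymes, Gpam, the mitochondrial acyltransferase that starts glycerolipid synthesis, was at 8.73, 10.9 and 13.2 CPM in KP replicates 1 to 3, 16.9, 14.4 and 20.7 in KP-PPARαΔ13, 30.0, 30.2 and 14.6 in KPG1 and 8.77, 14.1 and 23.4 in KPG1-PPARαΔ13. KPG1 and KP-PPARαΔ13 both lay above KP without overlap, with edgeR values in KPG1 against KP of log2 fold change 1.19 ± 0.38 (SE), adjusted p = 0.785. Agpat3 was at 115, 115 and 123 CPM in KP replicates 1 to 3, 71.9, 62.3 and 104 in KP-PPARαΔ13, 111, 75.0 and 102 in KPG1 and 91.2, 97.6 and 107 in KPG1-PPARαΔ13, and KP-PPARαΔ13 lay below KP (edgeR, log2 fold change -0.57 ± 0.21 (SE), adjusted p = 0.368). Agpat1 was at 80.5, 57.5 and 68.7 CPM in KP replicates 1 to 3, 72.0, 82.0 and 86.7 in KP-PPARαΔ13, 70.1, 69.7 and 67.2 in KPG1 and 51.3, 59.8 and 68.8 in KPG1-PPARαΔ13, and KPG1-PPARαΔ13 lay below KP-PPARαΔ13 (edgeR, log2 fold change -0.42 ± 0.18 (SE), adjusted p = 0.504). Both add the middle acyl chain of phosphatidate, as does Agpat2, which was at 33.0 to 65.3 CPM. The lipins, which remove the phosphate of phosphatidate, were at 13.4 to 29.5 CPM (Lpin1), 122 to 451 CPM (Lpin2) and 17.3 to 35.2 CPM (Lpin3), and none of the 3 had an unadjusted p under 0.05 in a comparison.

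Counted over the list, 18 of the 31 tested genes were higher and 13 lower in KP-PPARαΔ13 than in KP, where 49.2% of all 16527 genes were higher. None passed an adjusted p of 0.05 in edgeR, by which 0.00605% of all genes did. At an unadjusted p under 0.05 there were 8 (2 higher and 6 lower; 25.8% of the 31, against 11.4% of all genes), namely Slc25a1 and Fads3 on the higher side and Acly, Acaca, Elovl4, Acss2, Agpat3 and Mlxipl on the lower. Elovl4 is too low to compare, and without it the count was 7 of 30 (23.3%). In 6 genes the 3 tumors of one group did not overlap with those of the other, against 13.3% of all genes. The median log2 fold change was 0.13 for the list and -0.01 for all genes. DESeq2 called 3 of 30, against 2.31% of all genes, with adjusted p of 0.000255 for Mlxipl, 0.00621 for Acaca and 0.0282 for Slc25a1. The count at an unadjusted p under 0.05 was 4 without KP replicate 2, 4 without KP-PPARαΔ13 replicate 1 and 5 without both libraries low in Ppara.

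In KPG1-PPARαΔ13 against KPG1, 9 of 31 were higher and 22 lower, where 52.2% of all genes were higher, and the median log2 fold change was -0.14 for the list and 0.02 for all genes. None passed the adjusted p in edgeR (0.00605% of all genes did), and 6 had an unadjusted p under 0.05, with Elovl7 and Mid1ip1 higher and Acaca, Acacb, Fads1 and Fads2 lower, which is 19.4% against 10.8% of all genes. The groups did not overlap in 3 genes, Acacb, Scd1 and Fads1, at a background of 20.6%. DESeq2 called Acacb alone (adjusted p = 0.0181), against 1.25% of all genes. With sex as a covariate the count at an unadjusted p under 0.05 was 1 and the median was 0.01. Without KPG1 replicate 2, KPG1 replicate 3, KPG1-PPARαΔ13 replicate 1 or both libraries low in Ppara the count was 3 each time.

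The difference between these doxycycline effects was tested as an interaction. It was positive for 14 and negative for 17 genes, where 51.7% of all genes were positive, and 0 of 31 genes passed the adjusted p in edgeR, as did 0% of all genes. At an unadjusted p under 0.05 there were 7, against 11.8% of all genes, or 6 of 30 without Elovl4, which is too low to compare. The doxycycline effect was more positive in KPG1 for Mlxipl and more negative for Acacb, Fads1, Fads3, Slc25a1 and Gpam. DESeq2 called Mlxipl (adjusted p = 0.00200), against 1.78% of all genes. Averaged over both genotypes, 12 of 31 were higher and 19 lower on doxycycline (51.1% of all genes were higher), 0 passed the adjusted p in edgeR (0.0182% of all genes did) and 8 had an unadjusted p under 0.05, against 10.1% of all genes. These were Acly, Acaca, Acacb, Acss2 and Mlxipl on the lower side and Slc25a1, Mid1ip1 and Hsd17b12 on the higher. DESeq2 called Acaca (adjusted p = 0.00323), against 1.74% of all genes. The averaged count was 2 without KP replicate 2 and 4 without both libraries low in Ppara.

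**Figure D4:**
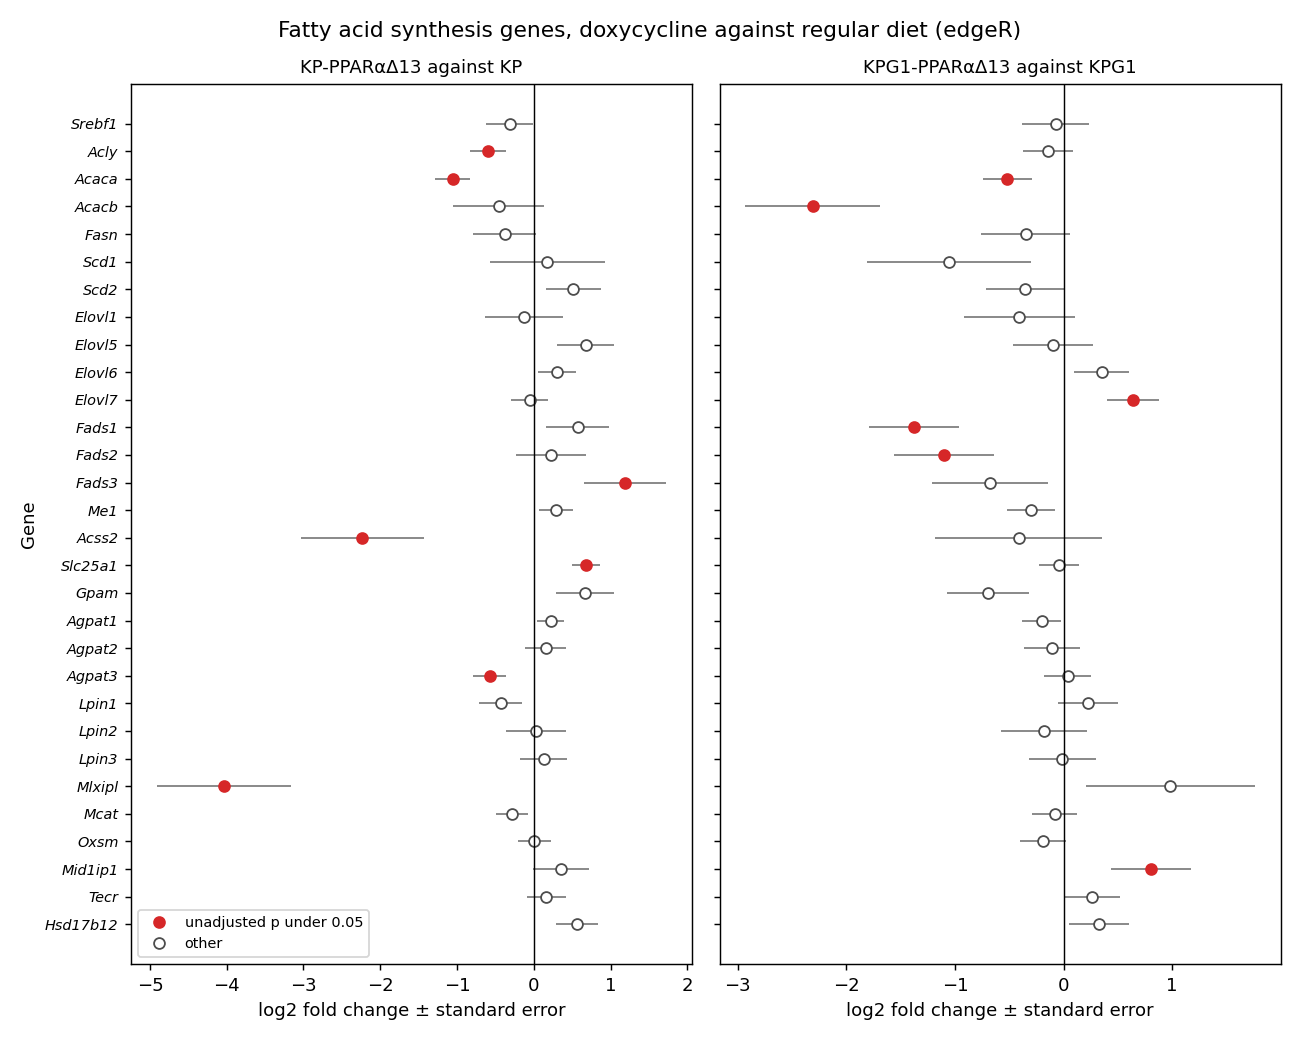
Fitted log2 fold change (points) with its standard error (lines) of 30 genes in KP-PPARαΔ13 against KP (left) and in KPG1-PPARαΔ13 against KPG1 (right), with different horizontal scales; filled points had an unadjusted edgeR p under 0.05, Elovl4 is left out for its few counts and Thrsp was not tested. Acaca lay left of 0 in both panels, and Mlxipl at -4.04 on the left and 0.98 on the right.

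Glut1Fl/Fl was set against KP on each diet, in comparisons that share their tumors with those of the diets. On the regular diet, where KPG1 and KP also differ in sex, 15 of 31 genes were higher and 16 lower (46.9% of all genes were higher), 0 passed the adjusted p in edgeR (0.0363% of all genes did) and 4 had an unadjusted p under 0.05 (Gpam, Me1 and Fads1 higher, Mlxipl lower; 6.23% of all genes). DESeq2 called 0 of 31, against 0.323% of all genes. The count at an unadjusted p under 0.05 was 0 with sex as a covariate (a term estimated from the doxycycline-fed tumors alone), 2 without KP replicate 2, 7 without KP replicate 3 and 1 without KPG1 replicate 2. Mlxipl was -2.31 ± 0.80 (SE) with all tumors and -0.51 ± 0.52 without KP replicate 2. The groups did not overlap in 4 genes, against 9.95% of all genes. Markers of cell types also differed in this comparison. The 3 club cell markers summed to 140.1 to 376 CPM in KPG1 and 59.9 to 124 CPM in KP (2 higher and 1 lower). The 4 alveolar macrophage markers, all lower, summed to 10.4 to 15.15 CPM in KPG1 and 25.5 to 118 CPM in KP. Of the 8 alveolar type 2 markers, 7 were higher and 1 lower. The 5 leukocyte markers tested were all lower. The sums of these latter lists overlapped between KPG1 and KP. Of all these markers, 1 of alveolar macrophages alone had an unadjusted edgeR p under 0.05, and none passed an adjusted p of 0.05. On doxycycline the club cell and alveolar macrophage sums overlapped between the genotypes, and the part of all these markers in the values of the listed genes was not tested. On doxycycline, 13 were higher and 18 lower in KPG1-PPARαΔ13 than in KP-PPARαΔ13 (50.5% of all genes were higher), 0 passed in edgeR (0.0303% of all genes did) and 4 had an unadjusted p under 0.05 (Mlxipl higher, Fads1 and Agpat1 lower, and Elovl4; 9.69% of all genes), or 3 of 30 without Elovl4. Mlxipl had log2 fold change 2.72 ± 0.83 (SE), adjusted p = 0.47 in edgeR there. DESeq2 called 0 of 30, against 1.08% of all genes, and 4 genes did not overlap, against 17.6%. The count was 1 without both libraries low in Ppara, and 2 without KP-PPARαΔ13 replicate 1 alone. Averaged over both diets, 16 of 31 genes were higher in the floxed genotype (47.8% of all genes were). There, 0 genes passed an adjusted p in edgeR or in DESeq2 and 0 had an unadjusted p under 0.05 in edgeR, against 0.0484%, 0.237% and 4.53% of all genes.

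Further genes of the pathway were counted in 3 lists. Of 36 tested genes of fatty acid activation, glycerolipid synthesis and SREBP control, 15 were higher and 21 lower in KP-PPARαΔ13 against KP (2 and 3 at an unadjusted p under 0.05, together 13.9% against 11.4% of all genes). In KPG1-PPARαΔ13 against KPG1, 15 were higher and 21 lower (6 and 4, together 27.8% against 10.8% of all genes). Elovl2, an elongase of polyunsaturated chains, was at 2.29, 90.2 and 4.04 CPM in KP replicates 1 to 3, 0.103, 0.968 and 0.603 in KP-PPARαΔ13, 0.480, 0.688 and 0.694 in KPG1 and 44.7, 4.29 and 11.3 in KPG1-PPARαΔ13, so that KP replicate 2 held most of the KP signal. Scap, which escorts SREBP precursors to the Golgi, was at 61.4, 69.2 and 52.3 CPM in KP replicates 1 to 3, 74.6, 70.6 and 55.3 in KP-PPARαΔ13, 29.6, 48.0 and 42.8 in KPG1 and 76.1, 72.4 and 74.5 in KPG1-PPARαΔ13 and did not overlap between KPG1 and KPG1-PPARαΔ13 (edgeR, log2 fold change 0.89 ± 0.21 (SE), adjusted p = 0.42). Hacd3, the dehydratase of the elongation cycle (listed as Ptplad1 in the count table), was at 117, 117 and 99.4 CPM in KP replicates 1 to 3, 70.6, 71.2 and 77.8 in KP-PPARαΔ13, 82.1, 65.0 and 125 in KPG1 and 182, 163 and 112 in KPG1-PPARαΔ13, and its edgeR values in KPG1-PPARαΔ13 against KP-PPARαΔ13 were log2 fold change 1.06 ± 0.25 (SE), adjusted p = 0.462. None of the genes in the 3 lists passed an adjusted p of 0.05 in any of the 7 comparisons by edgeR.

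Of 7 other enzymes that produce NADPH, 3 were higher and 4 lower when doxycycline was averaged over both genotypes, where 51.1% of all genes were higher (0 and 2 at an unadjusted p under 0.05, together 28.6% against 10.1% of all genes). Mthfd1, a folate enzyme, was at 314, 270.3 and 257 CPM in KP replicates 1 to 3, 156, 144 and 128 in KP-PPARαΔ13, 258, 234 and 248 in KPG1 and 176, 194 and 179 in KPG1-PPARαΔ13, with doxycycline-fed tumors below regular-diet tumors in both genotypes. In edgeR its averaged difference was log2 fold change -0.70 ± 0.11 (SE), adjusted p = 0.1. Idh2, the mitochondrial isocitrate dehydrogenase, was at 167, 182 and 176 CPM in KP replicates 1 to 3, 125, 110.0 and 134 in KP-PPARαΔ13, 199.6, 239.6 and 178 in KPG1 and 154, 157 and 160.0 in KPG1-PPARαΔ13 (-0.45 ± 0.11 (SE) on the log2 scale, edgeR adjusted p = 0.261).

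Of 14 genes of phosphatidylcholine and surfactant, 2 were higher and 12 lower in the averaged doxycycline comparison (1 and 5 at an unadjusted p under 0.05, together 42.9% against 10.1% of all genes, and 14.3% higher against 51.1%). The genotypes differed in this. In KP-PPARαΔ13 against KP, 5 were higher and 9 lower (1 and 1, together 14.3% against 11.4% of all genes). In KPG1-PPARαΔ13 against KPG1, 1 was higher and 13 lower (1 and 5, together 42.9% against 10.8%). In KPG1 against KP, 12 were higher and 2 lower (85.7% higher against 46.9% of all genes). Pcyt1b, an isoform of the enzyme that makes CDP-choline, was at 0.411, 1.15 and 1.22 CPM in KP replicates 1 to 3, 19.0, 12.8 and 2.31 in KP-PPARαΔ13, 1.08, 0.895 and 0.463 in KPG1 and 1.43, 2.79 and 5.66 in KPG1-PPARαΔ13 (edgeR, log2 fold change 2.81 ± 0.55 (SE), adjusted p = 0.176 averaged). Pla2g1b, a secreted phospholipase, was at 59.9, 73.5 and 67.4 CPM in KP replicates 1 to 3, 60.5, 46.9 and 49.9 in KP-PPARαΔ13, 77.2, 119 and 88.4 in KPG1 and 75.3, 46.6 and 52.4 in KPG1-PPARαΔ13. Lamp3, a membrane protein of lamellar bodies, had mean levels of 786 CPM in KP, 622 CPM in KP-PPARαΔ13, 1310.0 CPM in KPG1 and 357 CPM in KPG1-PPARαΔ13 (edgeR, log2 fold change -1.88 ± 0.52 (SE), adjusted p = 0.42 in KPG1-PPARαΔ13 against KPG1).

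Cell type markers were measured beside these genes, since fewer cells of a type and less RNA per cell cannot be told apart in RNA pooled from the CD45-depleted cells of a tumor. The 8 alveolar type 2 markers, of which 6 are also in the surfactant list above, were all lower in the averaged doxycycline comparison, 5 of them at an unadjusted edgeR p under 0.05 and none at an adjusted p of 0.05 (smallest adjusted p = 0.31). In KP-PPARαΔ13 against KP, 1 was higher and 7 lower, with 0 at that unadjusted p. In KPG1-PPARαΔ13 against KPG1, all 8 were lower, 4 of them at that unadjusted p. Their summed level was 27220.2 to 57400.2 CPM in KP, 23035 to 58032 CPM in KP-PPARαΔ13, 46143 to 73720.3 CPM in KPG1 and 24856 to 39312 CPM in KPG1-PPARαΔ13, so KPG1-PPARαΔ13 lay below KPG1 in the sum as well. The 6 fibroblast markers summed to 113 to 241 CPM in KP and 266 to 529 CPM in KP-PPARαΔ13, 5 of 6 being higher, and Lum was under 1 CPM in every tumor. In the floxed genotype they summed to 85.1 to 354 CPM in KPG1 and 127 to 183 CPM in KPG1-PPARαΔ13, with 1 higher and 5 lower. Of the 3 mesothelial markers, Msln was at 14.4 to 94.1 CPM in KPG1 and 3.96 to 61.5 CPM in KPG1-PPARαΔ13. In the other genotype Msln was at 2.36 to 42.8 CPM in KP and 158 to 294 CPM in KP-PPARαΔ13. The other two did not show this, since Wt1 was under 1 CPM throughout and Upk3b was at 0.445, 0.364 and 0.244 CPM in KP replicates 1 to 3 and 0.137, 1.90 and 0.168 in KP-PPARαΔ13. All 5 epithelial markers were higher in the averaged doxycycline comparison, 1 of them at an unadjusted p under 0.05 (Krt19, edgeR log2 fold change 0.85 ± 0.28 (SE), adjusted p = 0.356), and summed to 2323 to 6053 CPM over the 12 tumors. By genotype, 5 were higher in KP-PPARαΔ13 against KP, and 3 were higher and 2 lower in KPG1-PPARαΔ13 against KPG1. Over all 12 tumors the sums were 77.9 to 470.1 CPM for endothelial, 26.4 to 71.4 for leukocyte and 106 to 386 for cycling cell markers. The part of these shifts in the values of the 32 genes was not tested. Of the 6 adipocyte markers, Adipoq, Plin1, Lep and Pck1 were under 1 CPM in every tumor, while Cidec was at 0.48 to 4.37 CPM and Fabp4 at 1.10 to 17.2 CPM. Cidec and Fabp4 were both higher in KP-PPARαΔ13 against KP. In KPG1-PPARαΔ13 against KPG1, 1 was higher and 1 lower, and neither had an unadjusted edgeR p under 0.05 in these comparisons.

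Srebf1 was set against the other 30 tested genes over the 9 mice, on log2 CPM averaged over the tumors of a mouse. Acss2 followed it most closely (Pearson's r = 0.864, exact permutation p = 0.00089, adjusted over 30 genes 0.0267; Spearman's rho = 0.933, exact permutation p = 0.00075, adjusted 0.0225), and r was 0.768 without the 2 mice farthest from the median of Srebf1. Fasn had r = 0.838 (exact permutation p = 0.0118, adjusted 0.177), Acly r = 0.742 (exact permutation p = 0.0292, adjusted 0.219) and Acaca r = 0.689 (exact permutation p = 0.0486, adjusted 0.243). Scd1 had r = 0.369. The permutation treats all 9 mice as exchangeable, although they differ in genotype, diet and sex and not all have the same number of tumors. These values therefore do not separate group differences from variation shared within groups. Acss2 was the 1 gene of 30 that passed, and taken over 12 tumors as separate points 0 passed. After subtracting group means 6 passed (Fasn, Agpat2, Acaca, Acss2, Lpin3 and Acly). In KP, KPG1 and KPG1-PPARαΔ13, with 2 mice each, the deviations of the mice then determine each other. The mice cannot be freely exchanged in that setting, so its permutation p-values are not valid and no conclusion is drawn from the 6. No group has the 6 mice needed for a value within it, and sequencing batches are not given in the labels.

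**Figure D5:**
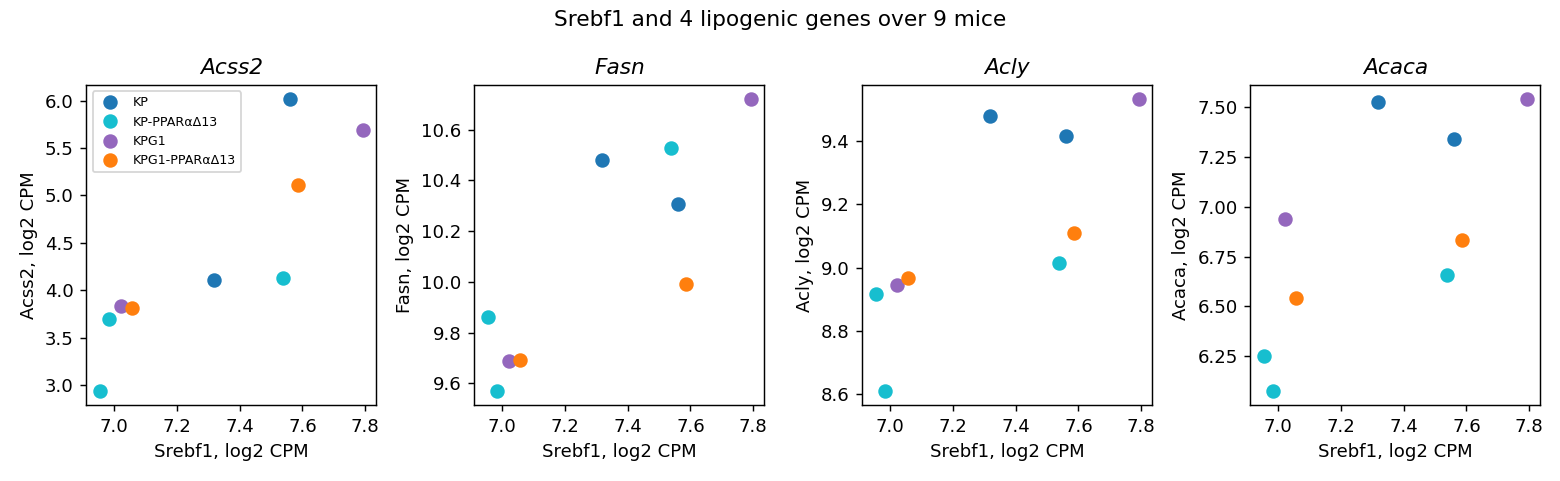
Mean log2 CPM of Srebf1 (horizontal) and of Acss2, Fasn, Acly and Acaca (vertical) in 9 mice, each point 1 mouse, colored by group. All 4 panels slope upward, with r = 0.864 for Acss2 and r = 0.689 for Acaca.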

How the data were processed

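RNA was sequenced from 12 CD45-depleted lung tumors in single-end reads from stranded libraries. The authors trimmed the reads, aligned them with HISAT2 (mm10) and counted them per gene with featureCounts 1.4.4, and these raw counts were deposited; the annotation and the strand setting of the counting are not given in the sources used here. A table of log2 values was also deposited and was not used. The per-tumor files equal the combined table in 12 of 12 tumors, and 13548 of 39017 genes had no count. Counts were tested across all genes with edgeR 4.0.16 (quasi-likelihood test, TMM scaling, filterByExpr by group, 1 fit of 4 group means with 8 residual degrees of freedom, biological coefficient of variation 0.44), in R 4.3.3, with Benjamini-Hochberg adjustment over 16527 genes and a threshold of 0.05. SE is the size of the log2 fold change over the square root of F. CPM are counts per 1000000 after TMM scaling (factors 0.89 to 1.07), and TPM used the union exon length of GENCODE M21 (GRCm38), which held 99.75% of the counts. At these depths a gene near 0.1 CPM has only a few counts per tumor. Members and lists were chosen with earlier results of these data known. All members are named. Values per tumor are given for Srebf1, Acly, Acaca, Fasn, Scd1, Scd2, Elovl6, Fads1, Fads2, Me1, Thrsp and every member with an unadjusted p under 0.05 or groups that did not overlap by over 2-fold, and genes of the pathway lists are named at an unadjusted p under 0.01. Of 109 list genes, 8 were matched by identifier. Correlations with Srebf1 used log2 CPM with a prior count of 2 and exact two-sided permutation tests over all pairings of 9 mice. Alternatives were DESeq2 1.42.0, limma voom (limma 3.58.1, the tool of the study), other scalings and filters, the groups of a comparison alone, sex, a replicate block, tumors summed by mouse, and each tumor left out. Leaving out both PPARαΔ13 libraries numbered 1 was added after seeing the data. The scripts were tested on simulated data.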

Additional observations from a re-analysis of the deposited data

How the results depend on the processing

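The 34 log2 fold changes of single genes with an unadjusted p under 0.05 (Elovl4 aside) kept their direction in all 761 alternatives. They were selected by that p in the same counts, some genes appear in several comparisons, and the alternatives refit most or all of the same tumors. A kept direction is therefore not independent support. None of the 34 passed the adjusted threshold in the main fit, and 755 alternatives stayed on that same side of the adjusted threshold. The 6 that crossed it were all DESeq2, which called 3 genes in KP-PPARαΔ13 against KP, 1 in KPG1-PPARαΔ13 against KPG1, 1 for the difference of these effects and 1 for doxycycline averaged over both genotypes. No other alternative called one of the 32 genes.

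The count at an unadjusted p under 0.05 moved more than the calls did. With sex as a covariate it was 1 in KPG1-PPARαΔ13 against KPG1, 0 in KPG1 against KP, 2 in KPG1-PPARαΔ13 against KP-PPARαΔ13 and 4 for the difference, and the median log2 fold change was 0.0112 in KPG1-PPARαΔ13 against KPG1 and 0.0057 for the difference; the cause was not tested. With a mean of at least 20 CPM, by which fewer genes are tested, it was 2 in KPG1 against KP, 2 in KPG1-PPARαΔ13 against KP-PPARαΔ13 and 4 for the difference. With tumors summed by mouse it was 2 in KPG1 against KP and 5 for averaged doxycycline, where limma voom also gave 5. Without both libraries low in Ppara, chosen after seeing the data, it was 5 for KP-PPARαΔ13 against KP, 3 for KPG1-PPARαΔ13 against KPG1, 1 for KPG1-PPARαΔ13 against KP-PPARαΔ13, 4 for the difference of the doxycycline effects, 4 for doxycycline averaged over both genotypes and 2 for Glut1Fl/Fl averaged over both diets. Leaving out 1 tumor at a time gave 4 to 8 for KP-PPARαΔ13 against KP, 3 to 7 for KPG1-PPARαΔ13 against KPG1, 1 to 7 for KPG1 against KP, 1 to 5 for KPG1-PPARαΔ13 against KP-PPARαΔ13, 4 to 8 for the difference of the doxycycline effects, 2 to 8 for doxycycline averaged over both genotypes and 0 to 2 for Glut1Fl/Fl averaged over both diets. The median log2 fold change then ran from -0.05 to 0.15 for KP-PPARαΔ13 against KP and from -0.31 to 0.06 for the difference, whose sign turned without KP replicate 2 (0.0626) or KP-PPARαΔ13 replicate 3 (0.0213); without the latter the median in KP-PPARαΔ13 against KP was -0.0546. Of the 30 correlations with Srebf1, 0 passed over 12 tumors and 6 after group means were subtracted, a setting in which the permutation is not valid, as stated above.

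The replicate numbers did not pair the tumors, with correlations of same-numbered deviations of -0.19 to 0.127. With the replicate number as a block the counts at an unadjusted p under 0.05 were 9 for KP-PPARαΔ13 against KP, 7 for KPG1-PPARαΔ13 against KPG1, 3 for KPG1 against KP, 4 for KPG1-PPARαΔ13 against KP-PPARαΔ13, 8 for the difference of the doxycycline effects, 8 for doxycycline averaged over both genotypes and 0 for Glut1Fl/Fl averaged over both diets, the number of called genes was 0 in each, and the medians were 0.07, -0.17, 0.0011, -0.09, -0.19, -0.09 and -0.0097. With 3 tumors per group and a biological coefficient of variation of 0.44, the spread between tumors rather than counting error sets the SE of genes above a few CPM. Elovl4 and Thrsp are too low to compare.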
